A study of Mus musculus with 8 samples.

Results

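The promoters of 8 noncoding genes were examined in germline stem (GS) cells from mice born after intracytoplasmic sperm injection (ICSI): Gm28196, 4930505O20Rik, Gm29264, Gm33326, Gm49464, 1700063H04Rik, Gm31822 and Gm48545. They held 134 of the 203645 promoter cytosines measured and were 8 of 9224 genes. The 8 were chosen by their higher methylation in ICSI-F1 than in control-F1 GS cells in these same lines, so differences between the groups at these loci are given as a description, without a test. A cytosine was called raised when its group mean was over 20 percentage points higher in ICSI-F1 GS cells and no single ICSI-F1 line fell to or under the mean of the controls. Of the 134 sites, 84 were raised, against 0.274% of all promoter sites. In the other direction 0 met the same rule, and the share of all promoter sites that did is not given here. Over all noncoding promoters measured, the 8 included, 196 of 10662 sites were raised. Since the same contrast chose the loci, nothing is read from the counts of 84 and 0. Among noncoding promoters, 1700063H04Rik and Gm31822 were the last included by number of raised sites, with 7 each, whereas 3 with 6 each, 1810049I09Rik and Gm15966 among them, fell just outside. Gm48545 was included with 2. GENCODE M21 lists 4930505O20Rik as an antisense RNA gene and the other 7 as lincRNA genes, so the label noncoding held for all 8.

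Noncoding genes of this kind give RNA that is not translated, and the work of most of them is unknown. A promoter lies next to the position where transcription begins. Methylation of cytosines followed by guanine (CpG) in a promoter usually accompanies silence of the gene when the promoter is rich in CpGs, whereas CpG-poor promoters are often methylated in many tissues. In the male germline, methylation is laid down before birth and is then kept through divisions of spermatogonia by maintenance methyltransferases.

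GS cells are a long-term culture of spermatogonia, part of which can rebuild sperm production when put back into a testis. The 4 control-F1 lines (29, 37, 44 and 45) came from mice with a C57BL/6 background born by natural mating, and the 4 ICSI-F1 lines (11, 17, 20 and 21) came from mice of the same background produced by injecting fresh testis sperm into oocytes. The sperm donors were green mice, which carry an Egfp transgene. The labels give the genotype of all lines as WT, and whether a line carried the transgene is not given in the sources used here. All lines were started from CD9-sorted spermatogonia of mature testes and grown on feeder fibroblasts, and 1 library was made from each line, so the spread between lines includes the spread between cultures. Methylation was read by reduced representation bisulfite sequencing (RRBS), in which DNA is cut with MspI at CCGG and the share of reads that keep a cytosine after bisulfite treatment is the methylation level. Summed scaled coverage over the promoter sites was 16184991 to 18018005 reads per line, and the median coverage of a site before scaling was 41 to 82 reads. Of 20 germline genes whose promoters are unmethylated in germ cells and methylated in many somatic cells, 10 had sites in the table, and all 10 had mean levels under 20% in every line (3.20% to 8.95% over the list). The labels come in 2 layouts, which with the numbers of sequenced reads given by the study separate library set 1 (lines 29, 37, 11 and 17) from library set 2 (lines 44, 45, 20 and 21). The sets were inferred in this way, and whether they were separate preparations or sequencing runs is not given in the sources used here. Mean levels at promoter sites outside CpG islands, shores and shelves were 18.8% to 20.2% in set 1 and 21.4% to 22.7% in set 2.

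All 134 sites lay outside CpG islands, shores and shelves and at a CpG of the reference genome (GRCm38, which the files call mm10). Of all 23986 promoter sites outside islands, shores and shelves, 344 were raised. The 4 sequences below are shown because the position of the raised sites within them differs from block to block. Each is the plus strand of the GRCm38.p6 genome, in lower case, with capitals at the CpGs where at least 1 cytosine was raised. They come from chr2:129947744-129948033, chr8:12467726-12467933, chr6:122390893-122390973 and chr10:19102040-19102121.
Gm28196: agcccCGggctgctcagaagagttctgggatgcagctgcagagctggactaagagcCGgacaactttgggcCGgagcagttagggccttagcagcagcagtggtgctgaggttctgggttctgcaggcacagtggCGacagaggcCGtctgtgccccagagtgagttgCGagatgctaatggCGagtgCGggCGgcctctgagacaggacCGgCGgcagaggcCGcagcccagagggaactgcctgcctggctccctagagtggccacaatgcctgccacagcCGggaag
Gm33326: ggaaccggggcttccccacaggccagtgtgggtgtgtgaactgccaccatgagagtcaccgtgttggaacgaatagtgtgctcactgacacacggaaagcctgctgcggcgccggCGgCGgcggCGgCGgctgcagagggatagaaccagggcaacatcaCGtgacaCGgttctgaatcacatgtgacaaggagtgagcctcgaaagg
1700063H04Rik: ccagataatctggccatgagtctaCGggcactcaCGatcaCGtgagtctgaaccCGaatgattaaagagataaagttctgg
Gm48545: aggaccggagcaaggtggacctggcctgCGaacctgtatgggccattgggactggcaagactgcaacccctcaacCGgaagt
In the block of Gm28196 all 13 CpGs were raised on at least 1 strand. In Gm33326 the 6 raised CpGs of 15 lay in and just beyond a run of 6 CGG triplets. The string CGGCGGCGG, which is part of that run, was searched on both strands. It was in none of the other 7 blocks and in 3.59% of 32851 RefSeq promoter windows of 300 bases (GRCm38.p6). Those windows lie around gene starts, whereas most of the blocks lie farther upstream and differ in length, so the comparison is not like for like. A raised CpG of 1700063H04Rik and a raised CpG of Gm33326 each lay in CACGTG, a palindrome and the core letters of an E-box. This motif was looked for after the sequences had been seen, and it held 2 of the 75 CpGs measured in the 8 blocks (2.67%) and 0.515% of the 122906 CpGs of the whole table. A match in letters does not show a binding site.

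Gm28196 and 4930505O20Rik had closely grouped ICSI-F1 lines and widely spread control-F1 lines. At Gm28196 (ENSMUSG00000100255, plus strand), 22 cytosines spanned 280 bp at chr2:129947749-129948028, 540 to 819 bp upstream of the listed start and in no annotated gene. Its sequence had 4 other matches in the genome, the longest over 282 bp at 85.5% identity on chromosome 18. Only 1 was of at least 100 bp, and the highest identity, 100%, was at a shorter match. How reads from such copies were placed was not tested. The mean level of the block was 41.3%, 98.0%, 57.0% and 72.7% in control-F1 lines 29, 37, 44 and 45 and 93.2%, 91.8%, 92.5% and 97.9% in ICSI-F1 lines 11, 17, 20 and 21. The groups overlapped because control-F1 line 37 was as high as the highest ICSI-F1 line. Group means (SD, n = 4 each) were 67.2% ± 24.2 for control-F1 and 93.9% ± 2.76 for ICSI-F1 lines, a difference of 26.6 percentage points, and the control-F1 spread was almost as large as the difference. All 22 sites were raised, by 20.8 to 32.3 points, and only 2 of them had every ICSI-F1 line above every control-F1 line, a pattern found at 0.427% of all promoter sites. Line 37 was the highest control-F1 line at all 22 sites and line 29 the lowest at 19. At the first cytosine, on the plus strand at position 129947749, line 37 had 78.9%, and at 19 of the 22 sites it lay above the ICSI-F1 mean. By strand, line 44 had 68.1% on the plus and 45.8% on the minus strand, and line 45 had 67.0% and 78.3%. The median width of the 95% Wilson interval of a site in a line was 17.5 points, which covers counting error only.

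At 4930505O20Rik (ENSMUSG00000086912, minus strand), 26 cytosines spanned 507 bp at chr8:80514957-80515463, 484 to 990 bp upstream of the start. Repeats covered 69.2% of this stretch and 16 of the 26 sites. Its sequence had 1715 other matches of at least 100 bp in the genome, 0 of them at 95% identity or more. The highest identity, 100%, was at a shorter match, and how reads from such copies were placed was not tested. The 4 control-F1 lines had mean levels of 36.1% (line 29), 53.1% (37), 78.0% (44) and 79.3% (45), and the ICSI-F1 lines had 82.3% (11), 87.2% (17), 93.7% (20) and 83.2% (21). The groups did not overlap, with line 11 only just above line 45. The share of all promoters with this pattern is not given here, so nothing is read from it. The difference of the means (61.6% ± 20.8 and 86.6% ± 5.18, SD, n = 4 each) was 24.9 points. It was not the same in the library sets, being 40.1 points in set 1, where both control-F1 lines were low, and 9.75 points in set 2. Without line 29 the difference was 16.4 points. Raised sites numbered 18, from 484 to 832 bp upstream, and the pair farthest from the start, at 989 and 990 bp, was not raised, with control-F1 means of 81.5% and 79.3%. Nearer the start, the 3 cytosines from 499 to 510 bp split the ICSI-F1 lines, since line 11 had 24.0%, 20% and 47.4% there while line 20 had 93.8%, 93.8% and 92.5%. Line 11 thus lay below the control-F1 mean at 2 sites of this block and above all control-F1 lines at 16.

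**Figure D1:**
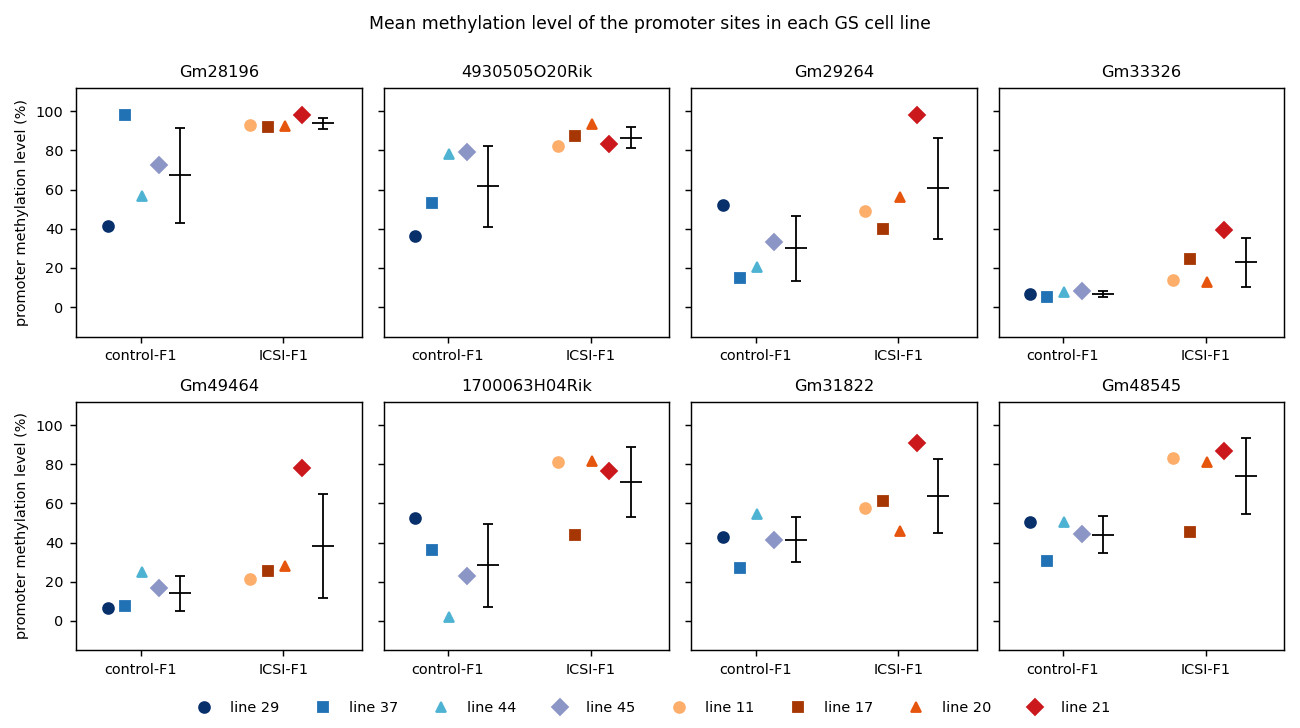
Mean methylation level (%) of the measured promoter sites in each GS cell line (points) with the group mean and SD of 4 lines (bars). The groups separate at 4930505O20Rik and Gm33326, control-F1 line 37 lies among the ICSI-F1 lines at Gm28196, and ICSI-F1 line 21 stands above the rest at Gm29264, Gm49464, Gm33326 and Gm31822.

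At 4 promoters, Gm29264, Gm49464, Gm31822 and Gm33326, line 21 was the highest ICSI-F1 line and the differences shrank by more than 1.5 times without it. At Gm29264 (minus strand), 15 cytosines covered 177 bp, 347 to 523 bp upstream. All 15 lay in the exon of Gm24105, an annotated miscellaneous RNA on the same strand. The block was at 52.0%, 14.7%, 20.5% and 33.0% in lines 29, 37, 44 and 45 and at 49.0%, 39.8%, 56.1% and 97.9% in lines 11, 17, 20 and 21. Line 21 was nearly fully methylated, between 92.5% and 100% at its sites, and was the highest line at all 15, whereas control-F1 line 29 lay within the range of the other ICSI-F1 lines. Means were 30.1% ± 16.5 and 60.7% ± 25.7 (SD, n = 4 each). The difference was 30.6 points with all lines, 18.2 points without line 21, 11.04 points in set 1 and 50.3 points in set 2. At 11 sites the raised rule was met, and at the sites 368, 383 and 384 bp upstream it failed because an ICSI-F1 line, 17 in each case, lay under the control-F1 mean. The block had 11 other matches of at least 100 bp in the genome, 0 of them at 95% identity or more, and how reads from such copies were placed was not tested.

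At Gm49464 (plus strand, chr15:86703512-86703833, 458 to 779 bp upstream, in no annotated gene), the control-F1 lines were low, at 6.65% (line 29), 7.42% (37), 25.2% (44) and 16.97% (45). ICSI-F1 lines 11, 17 and 20 had 21.4%, 25.5% and 28.1%, and line 21 had 78.1%. The values of lines 11, 17, 20 and 44 therefore lay within 7 points of each other, and line 21 stood alone, above every control-F1 line at all 15 sites. Means were 14.1% ± 8.79 and 38.3% ± 26.7 (SD, n = 4 each), and the difference of 24.2 points was 10.96 points without line 21. All 7 cytosines of the minus strand were raised and 1 of the 8 of the plus strand, with differences of 31.9 points and 17.5 points between the group means of each strand. The largest difference, 49.1 points, was at the cytosine nearest the start (position 86703833), where line 21 had 100% from 11 scaled reads and the other lines had 21 to 43 scaled reads.

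At Gm31822 (plus strand, chr10:92643695-92644010), the sites were nearer the start than in the other blocks, 81 to 396 bp upstream, and 11 of the 14 lay in the RefSeq promoter window of 300 bases around the start, with 6 of them raised. Levels were 42.9%, 26.9%, 54.8% and 41.4% in lines 29, 37, 44 and 45 and 57.9%, 61.3%, 46.0% and 90.6% in lines 11, 17, 20 and 21. Line 20 was below control-F1 line 44, and line 21 was high at every site, between 85.7% and 94.9%. Means were 41.5% ± 11.4 and 64.0% ± 18.9 (SD, n = 4 each), with a difference of 22.5 points, or 13.6 points without line 21, and nearly the same in set 1 (24.7) and set 2 (20.2). Raised sites (7) alternated with others along the block. At the plus-strand cytosine 82 bp from the start all lines were between 90.6% and 100%, and there the ICSI-F1 mean was lower by 3.23 points, the 1 site of the 134 at which it was not higher.

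At Gm33326 (minus strand, chr8:12467731-12467928), 29 cytosines lay 767 to 964 bp upstream. It was the least methylated of the 8 blocks and the one with the smallest control-F1 spread. Its plus-strand cytosine 874 bp upstream, in CCGG, was an exception, at 23.3% to 56.7% across the 8 lines. Control-F1 lines 29, 37, 44 and 45 had 6.54%, 5.00%, 7.87% and 8.41%, and ICSI-F1 lines 11, 17, 20 and 21 had 14.1%, 24.8%, 12.9% and 39.6%. The groups did not overlap, and the difference of the means (6.95% ± 1.52 and 22.8% ± 12.4, SD, n = 4 each) was 15.9 points, or 10.3 points without line 21. The 9 raised sites lay from 877 to 930 bp upstream, a stretch that held 14 sites. At 15 of the 29 sites every ICSI-F1 line lay above every control-F1 line, a pattern found at 0.427% of all promoter sites. The locus was chosen by this contrast, so nothing is read from that count or from the separate groups. Line 21 also differed between strands over the 14 sites of that stretch, with 63.6% on the minus strand and 25.1% on the plus strand, whereas lines 11 and 17 were higher on the plus strand there (22.8% against 7.77%, and 39.3% against 18.9%). A level between none and all in a bulk library can come from a share of the cells or from a share of the copies in each cell, and these cannot be told apart.

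**Figure D2:**
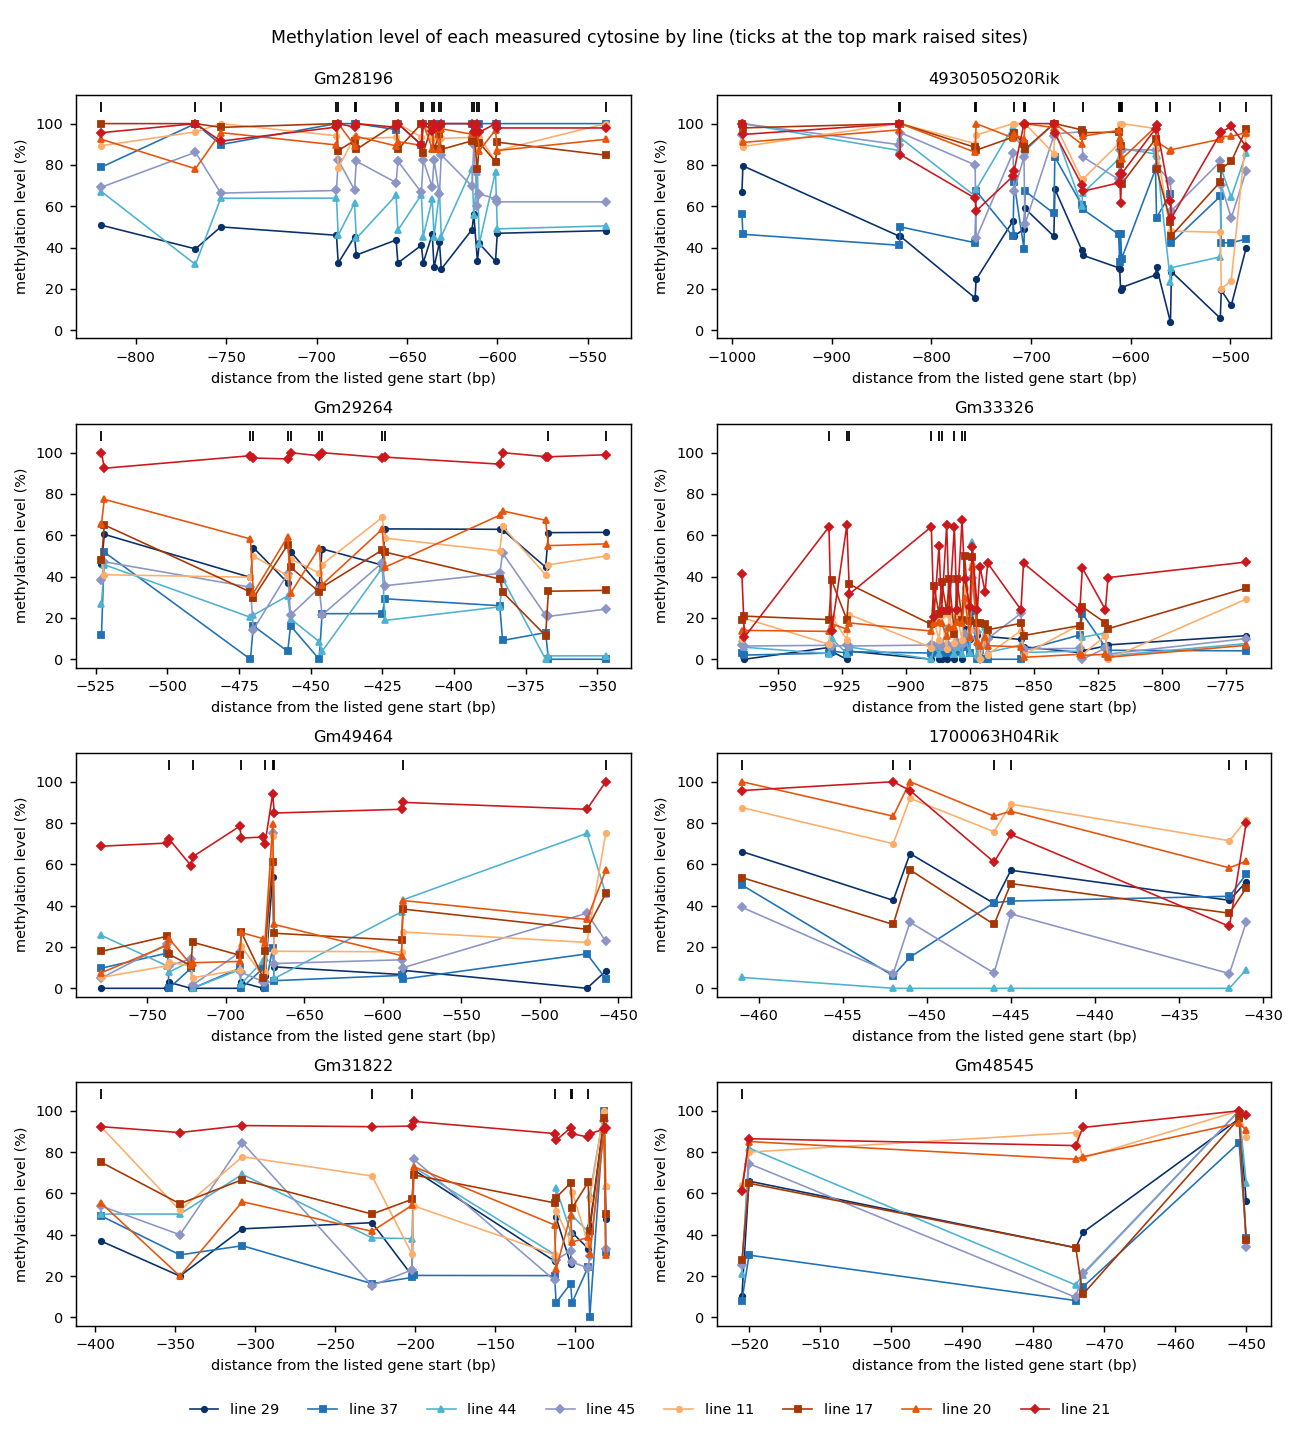
Methylation level (%) of each measured cytosine by its distance in bp from the listed gene start (negative is upstream), 1 colored line per GS cell line (control-F1 lines in blue, ICSI-F1 lines in orange to red); ticks at the top mark raised sites. Line 21 runs above the other lines across Gm29264, Gm49464 and Gm31822, and line 44 lies near 0 across 1700063H04Rik. Single cytosines of Gm33326, Gm49464, Gm31822 and Gm48545 stand far above their neighbors in most lines.

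Line 17 was the exception among ICSI-F1 lines at 1700063H04Rik and Gm48545. At 1700063H04Rik (plus strand), 7 cytosines of 4 CpGs lay within 31 bp at chr6:122390918-122390948, 431 to 461 bp upstream and in no annotated gene. Control-F1 lines 29, 37, 44 and 45 had 52.3%, 36.4%, 2.05% and 23.0%, and ICSI-F1 lines 11, 17, 20 and 21 had 81.1%, 44.1%, 81.8% and 76.7%. Line 17 lay below control-F1 line 29, and at 0 of the 7 sites did line 17 exceed every control-F1 line. Means were 28.4% ± 21.3 and 70.9% ± 18.0 (SD, n = 4 each), and the difference of 42.5 points was the widest of the 8 promoters. It was 18.2 points in set 1 and 66.7 points in set 2. The lines with the most extreme values were also the shallowest here, since line 44 had 13 to 22 and line 20 had 12 to 15 scaled reads at these sites against 27 to 128 in the other lines but line 21 (18 to 50). At the plus-strand cytosine 452 bp upstream line 44 had 0 methylated of 12 reads, which allows a level of up to 25.0%. All 7 sites were raised, and the largest differences were those of the CpG at 451 and 452 bp, 58.2 points on the minus strand and 57.1 points on the plus strand.

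At Gm48545 (minus strand), 6 cytosines of 3 CpGs spanned 72 bp at chr10:19102045-19102116, 450 to 521 bp upstream, and all lay in the exon of Tpi-rs5, a processed pseudogene. The block had 4 other matches of 100 bp or more in the genome, the longest over 228 bp at 89.9% identity. How reads from such copies were placed was not tested. Control-F1 lines 29, 37, 44 and 45 had 50.6%, 30.7%, 50.7% and 44.2%, and ICSI-F1 lines 11, 17, 20 and 21 had 83.1%, 45.2%, 81.1% and 86.8%. Line 17 lay within the control-F1 range and the other ICSI-F1 lines above it. Means were 44.04% ± 9.44 and 74.0% ± 19.4 (SD, n = 4 each), a difference of 30.0 points. Only the minus-strand cytosines at 474 and 521 bp were raised, by 53.9 and 37.7 points. Their CpG partners on the plus strand were not raised, and 1 of them, at 473 bp, differed by 40.1 points. There the rule failed because line 17 had 11.1%, below the control-F1 mean of 24.4%.

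**Figure D3:**
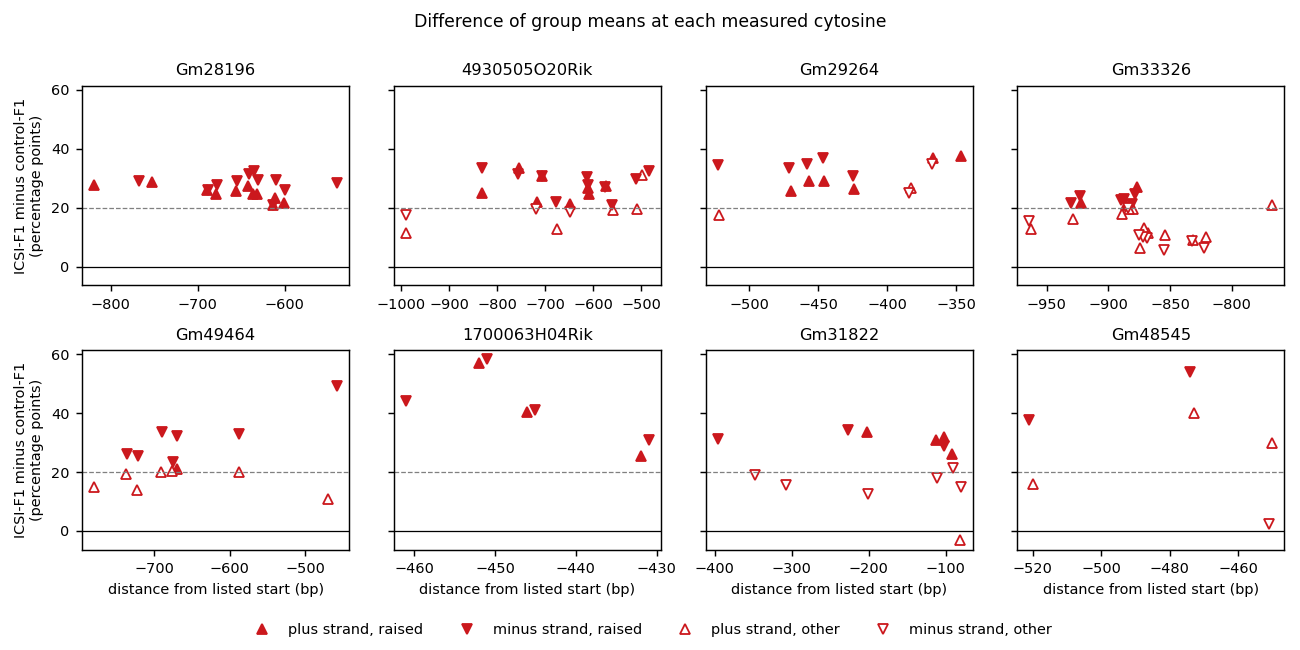
ICSI-F1 minus control-F1 difference of group means (percentage points) at each measured cytosine against its distance in bp from the listed start; filled symbols are raised sites, triangles pointing up are on the plus strand and those pointing down on the minus strand. The dashed line is at 20 points, and 133 of the 134 symbols lie above 0.

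The same lines did not vary at all loci. Line 21 was the highest ICSI-F1 line at 6 of the 8 promoters and line 20 at the other 2 (4930505O20Rik and 1700063H04Rik). Line 17 was the lowest ICSI-F1 line at 4 promoters, line 11 at 2 and line 20 at 2. Departures of line 21 from the ICSI-F1 mean ran from −3.39 points at 4930505O20Rik to 39.8 points at Gm49464. Among the control-F1 lines, 29 was lowest at 3 promoters and highest at 2, and its departure from the control-F1 mean went from −26.0 points at Gm28196 to 23.9 points at 1700063H04Rik. Line 37 was lowest at 4 promoters and the highest at Gm28196, by 30.8 points above the control-F1 mean, and line 44 was highest at 3 and 26.4 points below the mean at 1700063H04Rik. Line 45 was never the lowest. For comparison, over the 448 promoters of the table with at least 3 sites and a range of at least 20 points among the 8 lines, line 21 was the highest ICSI-F1 line at 44.2% and line 44 the highest control-F1 line at 50.9%. Line 37 was the lowest control-F1 line at 43.5% of them, and lines 11 and 17 the lowest ICSI-F1 line at 38.4% and 26.1%. The median SD over the 8 promoters was 14.0 points among control-F1 lines and 18.5 points among ICSI-F1 lines, against 4.65 and 3.41 points over the 1938 promoters with a mean level of 10% to 95%. The 8 were chosen on these same levels, so nothing is read from their wider spread. With the mean of each site within each group removed, the share of the sum of squares that lay between lines, and not between sites within a line, was 51.4% at Gm33326 to 82.5% at Gm28196. At Gm28196 this share was 86.1% among control-F1 and 19.3% among ICSI-F1 lines.

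**Figure D4:**
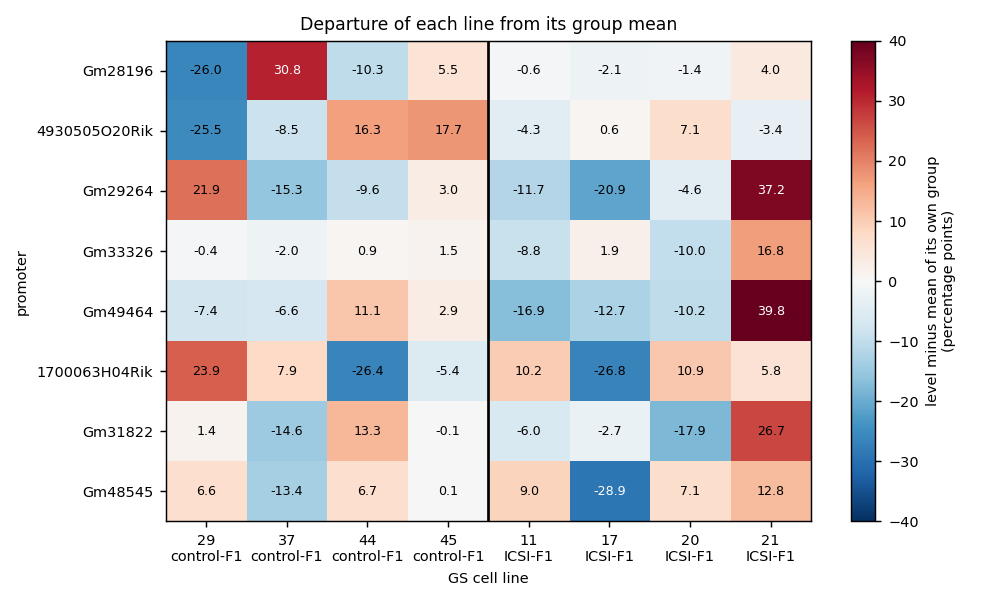
Promoter level of each GS cell line minus the mean of its own group (percentage points; red above, blue below) for the 8 promoters. Line 21 has the largest positive values of the ICSI-F1 lines, at Gm49464 (39.8) and Gm29264 (37.2), and line 17 the most negative, at Gm48545 (−28.9) and 1700063H04Rik (−26.8). Every line changes sign between promoters.

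Both strands were measured at 59 of the 75 CpGs. At 27 of these both cytosines were raised, at 20 only 1, and at 12 neither. The loci were chosen by this contrast and the shares over all promoter CpGs are not given here, so nothing is read from these counts. The mean level over the 8 lines differed by more than 20 points between the strands at 6 CpGs, and all 6 were in CCGG, the site of MspI. They were 6 of 14 such CpGs in the blocks, against 0 of 45 CpGs outside CCGG. In these means, lines with strand differences of opposite sign offset each other, and single lines could differ widely outside CCGG too. At the CpG 929 and 930 bp upstream of Gm33326, plus minus minus strand ran from −50.5 to 19.1 points over the lines. At that 509 and 510 bp upstream of 4930505O20Rik it ran from −27.4 to 42.5 points. At the CpG 81 and 82 bp upstream of Gm31822 the mean level over all lines was 96.1% on the plus strand and 51.4% on the minus strand, and at that 450 and 451 bp upstream of Gm48545 it was 63.4% and 96.4%. In the whole table, CpGs with a mean level of 20% to 80% were compared by the same means. The means of the strands differed by more than 20 points at 54.8% of 9200 CpGs in CCGG and at 2.22% of 495 outside it. When the cytosines of MspI sites were left out, a choice made after these values were seen, the differences between groups were 16.3 to 47.0 points over the 8 promoters, and Gm48545 rose from 30.0 to 47.0 points with 2 cytosines left.

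Few other measured promoters lay near the 8. Of the table's promoters, 4 had a start within 100 kb of one of them, and each had 0 raised sites, against 3.39% of all promoters with at least 1. The promoter of 2310047D07Rik, 16350 bp from the start of Gm29264, was at 84.8% ± 7.29 and 85.2% ± 2.88 (SD, n = 4 each) in control-F1 and ICSI-F1 lines. Sox1, which encodes a transcription factor of the early nervous system, and 4933439N14Rik flanked Gm33326 and were at 2.61% ± 2.10 and 6.23% ± 1.56 in control-F1 and at 2.48% ± 2.37 and 5.46% ± 1.22 in ICSI-F1 lines (SD, n = 4 each). Gm20139, 40156 bp from Gm48545, was at 95.5% ± 1.85 and 96.6% ± 1.96 (SD, n = 4 each).

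For each of the 8 promoters, the 1 of 440 other promoters with the most like profile was sought by the mean absolute difference over the 8 lines after centring. The closest match was between Gm49464 and 5430421F17Rik (3.48 points), whose line 21 had 92.5% and whose other lines had 19.7% to 47.3%. Gm33326 was nearest to Dpp7 (3.49 points), which encodes a dipeptidyl peptidase and had 42.7% in line 21 against 7.51% to 20.2% in the other lines. Profiles like that of line 21 at Gm49464 and Gm33326 thus also occurred at promoters outside the 8. 4930505O20Rik was nearest to Musk, the receptor kinase of the neuromuscular junction (4.15 points), and Gm31822 to Tent5b (5.63 points). Slc45a4, a solute carrier gene, was nearest to both Gm48545 (6.48 points) and 1700063H04Rik (13.5 points), Gm29264 to Gm11077 (8.94 points) and Gm28196 to Tbx21, which encodes the T cell factor T-bet (9.30 points).

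Library set was a contrast that had not been used to choose the promoters, and it was tested with group in the model. Over all 9224 promoters, limma called 8.77% different between the sets at an adjusted p under 0.05, nearly all of them higher in set 2 (805 of 809), and 0 of the 8. The count over all promoters was 0 to 2 with any 1 line left out. The nearest were Gm49464, with a log2 ratio of methylated to unmethylated reads higher by 1.69 ± 0.62 (SE) in set 2 (limma, adjusted p = 0.0963), and 4930505O20Rik, higher by 1.30 ± 0.55 (SE, limma, adjusted p = 0.125). Gm28196 and 1700063H04Rik had estimates of the other sign (−0.59 ± 1.25 and −0.84 ± 1.07, SE). With large errors, none of these values shows that the sets were alike at the 8 promoters.

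Coverage was also not used to choose the promoters, though whether it was independent of the choice was not tested. Its test asked whether these loci gave more or fewer reads in 1 group. With library set in the model, limma called 0 of 9224 promoters (0%; 255 had an unadjusted p under 0.05), and 0 of the 8. The estimates for the 8, ICSI-F1 minus control-F1 of the centred log2 coverage, ran from −0.33 ± 0.36 (SE) at 1700063H04Rik to 0.06 ± 0.18 (SE) at Gm49464, with a limma adjusted p of 0.999 for all. The SE of 1700063H04Rik was the widest of the 8.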

How the data were processed

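RRBS libraries of 8 GS cell lines, 4 control-F1 and 4 ICSI-F1, were analyzed. The authors trimmed reads with Trim Galore 0.5.0, ran Bismark 0.20.0 in non-directional mode against mm10, and counted cytosines with methylKit (1.16.0 in the submitters' processing notes). Cytosines with fewer than 10 reads or above a high percentile of coverage were removed, coverage was scaled between lines, strands were kept apart, and promoters were 1 kb upstream of Ensembl starts. The deposited read numbers are therefore scaled and rounded scores, not counts. The factors, read here from the gaps between values, were 1 to 1.88, and median coverage before scaling was 41 to 82 reads per site. The deposited file was the promoter table, and it held only sites found in all lines.

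The level of a site was methylated over all reads, a promoter level was the unweighted mean of its sites in a line, and a group value was the mean of 4 lines. Library set was tested with limma 3.58.1 (R 4.3.3, trend) on the log2 ratio of summed methylated and unmethylated reads with 1 read added, and coverage with limma on mean log2 scaled coverage centred on each line's median. Benjamini-Hochberg adjustment at 0.05 was made over all 9224 promoters. On simulated data with the residual spread of the lines, limma recovered 13% of 100 promoters changed by 1 log2 unit and 65% of 100 changed by 3 between library sets, and 62% and 99% in coverage. Intervals are Wilson intervals at 95%, and a level of 0 is given with the limit that 3 reads allow. Sequences came from GRCm38.p6 (that of the Gm29264 block is not reported here), genes from GENCODE M21, and matches from blastn 2.17.0. The promoters named were the 8, for each the 1 most like promoter, those with starts within 100 kb, and genes whose exons cover a site. The promoters and lists were chosen with earlier results of these data known, as was the list of germline genes. The line numbers match those the study's supplement gives to single F1 mice, so each line was taken to come from its own mouse, with 1 library, and p-values measure the spread between lines. Alternatives were other thresholds, exclusions, coverage minimums, weights, joined strands, medians, left-out lines and single library sets.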

Additional observations from a re-analysis of the deposited data

Results flagged for a closer look

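In 16 groups of 4 lines examined with Dixon's gap ratio, 3 held a line far from the rest. Chance usually picks out about 1 in 20 groups, but these promoters were chosen on the same levels, so that rate does not hold here. ICSI-F1 line 21 had 78.1% at Gm49464, where the other ICSI-F1 lines had 21.4% to 28.1%. ICSI-F1 line 17 had 44.1% at 1700063H04Rik, against 76.7% to 81.8%, and 45.2% at Gm48545, against 81.1% to 86.8%. At both of these promoters line 17 lay within the range of the control-F1 lines. Line 21 was at 97.9% at Gm29264 and 90.6% at Gm31822, where the gap to the next line was below the critical value.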

How the results depend on the processing

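All 8 differences between groups stayed positive under every alternative run. Since the same contrast in these lines chose the loci, nothing is read from that sign. Of 126 alternative values, 123 moved by less than 1 pooled SD of the lines. The others were 1700063H04Rik in library set 1 (18.2 points) and set 2 (66.7 points) alone, and Gm48545 without MspI cytosines (47.0 points). That last alternative was added after the values were seen. The pooled SD was 8.83 points at Gm33326 to 21.6 points at Gm29264. By arithmetic, leaving out 1 line cannot shift a difference by 1 pooled SD, so those values could not have counted as moved. Shifts below it could be large. Gm49464 went from 24.2 to 10.96 points without line 21. At 4930505O20Rik the difference was 40.1 points in set 1 and 9.75 points in set 2. The count of 123 therefore does not show that the differences were stable. With 1 line left out, raised sites in the 8 promoters numbered 58 to 91. They were 33 at a threshold of 30 points, and 55 when sites where a control-F1 line reached the ICSI-F1 mean were also excluded. With every ICSI-F1 line above every control-F1 line they were 25, and with strands joined 49 CpGs, in place of 84 sites.

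Over all promoter sites, 557 raised sites became 1009, 300 and 141 at thresholds of 15, 25 and 30 points, 137 with every ICSI-F1 line above every control-F1 line, 316 at 30 or more reads in every line, 308 CpGs with strands joined, 1773 in library set 1 alone and 855 in set 2 alone, and 408 to 1109 with 1 line left out (1109, 977 and 952 without lines 44, 45 and 11). The 809 promoters called by library set became 1 on the percent scale, 1582 with 5 reads added, and 0 to 2 with 1 line left out (fewer samples in the fit), while 2639 to 3622 still had an unadjusted p under 0.05. Otherwise the cause was not tested. Coverage gave 0 calls in limma under all its alternatives, with 65 to 944 promoters at an unadjusted p under 0.05. Coverage minimums of 20 and 30 reads left no site at 1700063H04Rik and gave no value there. No paired analysis was possible because line numbers are not shared between the groups. Coverage of 11 or more scaled reads per site and line limits single sites, above all at 1700063H04Rik.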

Other observations

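In the whole promoter table, 9200 of the 9695 CpGs that had both strands and a mean level of 20% to 80% lay in CCGG, whereas 19.4% of all measured CpGs did. Among these 9200 the median difference between the mean levels of the strands was 29.7 points, and among the 495 outside CCGG it was 3.77 points. In the 8 promoters 21 of 32 such CpGs lay outside CCGG, with a median difference of 2.36 points between the mean levels of the strands.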
